A study of Mus musculus with 67 samples.

Results

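IFNb is the murine form of interferon beta, and the 12 libraries described here tested what its soluble form did to the transcriptome of naive T cells, labelled CD4+, that were activated through CD3. They are 12 of the 60 libraries of the series and were chosen by their labels alone, as the libraries of T cells from unimmunized C57BL/6 mice that received anti-CD3. Spleen and lymph node cells were put through magnetic enrichment for CD4+ T cells and cultured for 18 h with aldehyde sulfate beads that carried anti-CD3 together with either a control immunoglobulin (CtrlIg) or anti-Btla, an antibody to the inhibitory receptor Btla. The 4 groups of 3 libraries were CtrlIg, CtrlIg+IFNb, anti-Btla and anti-Btla+IFNb, and 3 libraries of unstimulated naive T cells served for reference. The mice were young adults of both sexes by the study's general methods. No group carried a genetic change, and the sources used here do not give the dose of IFNb or whether a library is 1 mouse or a pool. The effect of IFNb was taken as the mean of the 2 groups with IFNb minus the mean of the 2 groups without it, so that both bead arms counted equally and 6 libraries stood against 6.

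Type I interferons signal through the paired receptor chains Ifnar1 and Ifnar2 and the kinases Jak1 and Tyk2. These phosphorylate Stat proteins, among them Stat2, which join Irf9 in a complex named ISGF3. ISGF3 binds the interferon-stimulated response element (ISRE) of many interferon-stimulated genes, and other Stat dimers bind a second element, the gamma-activated site (GAS). The products of these genes sense or degrade viral RNA, restrict virus assembly, raise antigen presentation and feed back on the receptor. In T cells type I interferon is also known to modulate proliferation, survival and cytokine production.

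The stimulated libraries held 7.30 to 34.0 M counts each. The median depth was 13.6 M without and 16.5 M with IFNb. Levels are given as CPM, a gene's counts relative to its library's total after TMM scaling. Cd4 stood at 308 to 432 CPM, and all 10 genes of the CD4 T cell list were tested. Scaled for transcript length as TPM, the CD8 genes Cd8a (84.5 to 120 TPM) and Cd8b1 (198 to 308 TPM) lay near or above Cd4 (98.0 to 139 TPM), which goes against the label of CD4+ T cells, so the cells are called naive T cells here. In addition, the 12 B cell markers summed to 327 to 518 CPM without and 334 to 511 CPM with IFNb. The 12 monocyte and macrophage markers summed to 19.7 to 41.7 CPM without and 20.1 to 38.1 CPM with IFNb, and C1qa was at 0 in all 12 libraries. None of the markers in 10 lists of other cell types, cytotoxic cells and CD4 T cells was called for IFNb. In bulk RNA, fewer cells of a type and less RNA per cell cannot be told apart. The libraries labelled with IFNb did not stand apart from their partners in the genes that IFNb is known for, as the values that follow show, so the groups are named here as the labels name them. Neither the activity of the IFNb nor the assignment of the labels was tested.

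The promoters of a few classical targets show what the ISRE looks like. They come from the RefSeq annotation of GRCm38.p6 and run over the 150 bases before the transcription start, 5′ to 3′ on the strand of the gene. Capitals mark each match to the ISRE, searched as GAAANNGAAA on both strands, or to the GAS, searched as TTCNNNGAA. The 5 genes were chosen after their values were seen, because no gene passed the test. Isg15 encodes a ubiquitin-like protein that is attached to other proteins, Ifit1 a protein that binds foreign RNA, Gbp2 a guanylate-binding GTPase, and Socs1 an inhibitor of Jak kinases. Irf1, a transcription factor, holds a GAS and no ISRE in this stretch.
Isg15, chr4:156200819-156200968, minus strand: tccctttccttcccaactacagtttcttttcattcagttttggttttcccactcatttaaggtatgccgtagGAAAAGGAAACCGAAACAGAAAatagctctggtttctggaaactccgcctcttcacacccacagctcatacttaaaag
Ifit1, chr19:34640739-34640888, plus strand: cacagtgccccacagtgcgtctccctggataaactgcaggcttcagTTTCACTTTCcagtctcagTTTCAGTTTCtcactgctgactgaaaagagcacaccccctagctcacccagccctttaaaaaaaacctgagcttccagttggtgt
Gbp2, chr3:142620513-142620662, plus strand: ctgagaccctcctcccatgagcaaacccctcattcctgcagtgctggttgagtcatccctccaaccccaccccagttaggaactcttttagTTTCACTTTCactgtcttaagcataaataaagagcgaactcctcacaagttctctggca
Socs1, chr16:10785537-10785686, minus strand: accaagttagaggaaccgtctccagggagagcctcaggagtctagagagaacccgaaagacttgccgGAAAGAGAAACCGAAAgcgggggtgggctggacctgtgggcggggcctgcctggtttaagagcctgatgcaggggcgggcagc
Irf1, chr11:53769864-53770013, plus strand: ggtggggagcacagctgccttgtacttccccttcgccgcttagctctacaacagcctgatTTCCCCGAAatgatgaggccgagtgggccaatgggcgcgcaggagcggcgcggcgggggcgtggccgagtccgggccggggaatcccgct
The ISRE of Isg15 is 3 overlapping matches that begin 78, 72 and 66 bases before the start, and that of Socs1 is 2 overlapping matches at 83 and 77 bases. Ifit1 has matches at 104 and 85 bases and Gbp2 has 1 at 59 bases, both on the opposite strand. Over a window from 250 bases before to 50 bases after the start, 3.44% of 32851 promoters held an ISRE and 8.30% held a GAS. Among the 207 genes of 14 interferon lists that could be tested, 165 had an entry in the promoter table, and 63 of these (38.2%) held an ISRE and 30 (18.2%) a GAS. A match describes these letters and is not evidence of binding.

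None of the 15150 genes that passed the filter on low counts was called for IFNb, a percentage called of 0%. Calls were at an adjusted p below 0.05 in edgeR's quasi-likelihood test. With the filter, 632 genes (4.17%) had an unadjusted p below 0.05, and the smallest adjusted p was 0.377. Without that filter 96 genes were called, 0 of them in any of the lists. The log2 changes of those named below barely moved between the 2 fits. Lars2 was at −0.40 in both, while its unadjusted edgeR p went from 0.000867 with the filter to 7.34e-63 without it. It was higher with IFNb in 2 of 6 pairs. What lowered these p-values was not tested. DESeq2 called 11 genes, none of which belongs to any of the 32 lists described here. Apart from Ak6 and Tpt1-ps3, none of the 11 had a mean above 5.91 CPM with or without IFNb. Some, such as Akt2-ps, did not pass the filter of edgeR and were at 0 CPM in all 6 libraries of 1 condition. The 14 interferon lists named 226 genes, of which 219 were in the tables and 207 passed the filter on low counts. Of the 207, 0 were called, 106 lay above and 101 below no change, and their median log2 change was 0.00, the same as that of all genes tested. Only 4 had an unadjusted p below 0.05, namely Socs3 and Ly6k, which were lower, and Parp6 and Trim30b, which were higher, all 4 at an adjusted p of 1. The levels of the 6 libraries with and the 6 without IFNb overlapped for each of the 669 tested genes of the 32 lists, while for all genes tested the share without overlap was 0.119%.

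Isg15 (chr4:156199424-156200818, GRCm38) stood at 19.7, 11.1 and 30.3 CPM in CtrlIg libraries 1, 2 and 3 and at 17.5, 9.23 and 19.9 CPM in CtrlIg+IFNb libraries 1, 2 and 3. With anti-Btla it stood at 17.4, 11.5 and 15.1 CPM without and at 18.2, 11 and 20.6 CPM with IFNb. The groups overlapped throughout, the library numbered 2 was lowest in every group, and Isg15 was higher with IFNb in 2 of 6 same-numbered pairs. Its log2 change was −0.12 with a 95% interval from −0.37 to 0.14 (adjusted p = 1 in edgeR). Unstimulated cells had less of it, at 6.11, 5.18 and 5.09 CPM, so the gene could be measured well above its resting level.

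Ifit1 (chr19:34640871-34650009) also had its lowest level in library 2 of every group. Its levels were 52.3, 27.9 and 88.1 CPM in CtrlIg and 49.9, 28.8 and 58.6 CPM in CtrlIg+IFNb libraries. They were 34.6, 23.4 and 41.0 CPM in anti-Btla and 39.0, 31.0 and 58.3 CPM in anti-Btla+IFNb libraries. Those numbered 3 were highest in each group, and the log2 change with IFNb was 0.06 with an interval from −0.23 to 0.34. Gbp2 (chr3:142620602-142638008) had a lowest, median and highest level of 844, 1081 and 1498 CPM without and of 838, 1178 and 1400 CPM with IFNb, for a log2 change of 0.01 with an interval from −0.17 to 0.19. Its unstimulated levels were 171, 75.1 and 111 CPM, far below those of all 12 stimulated libraries.

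**Figure D1:**
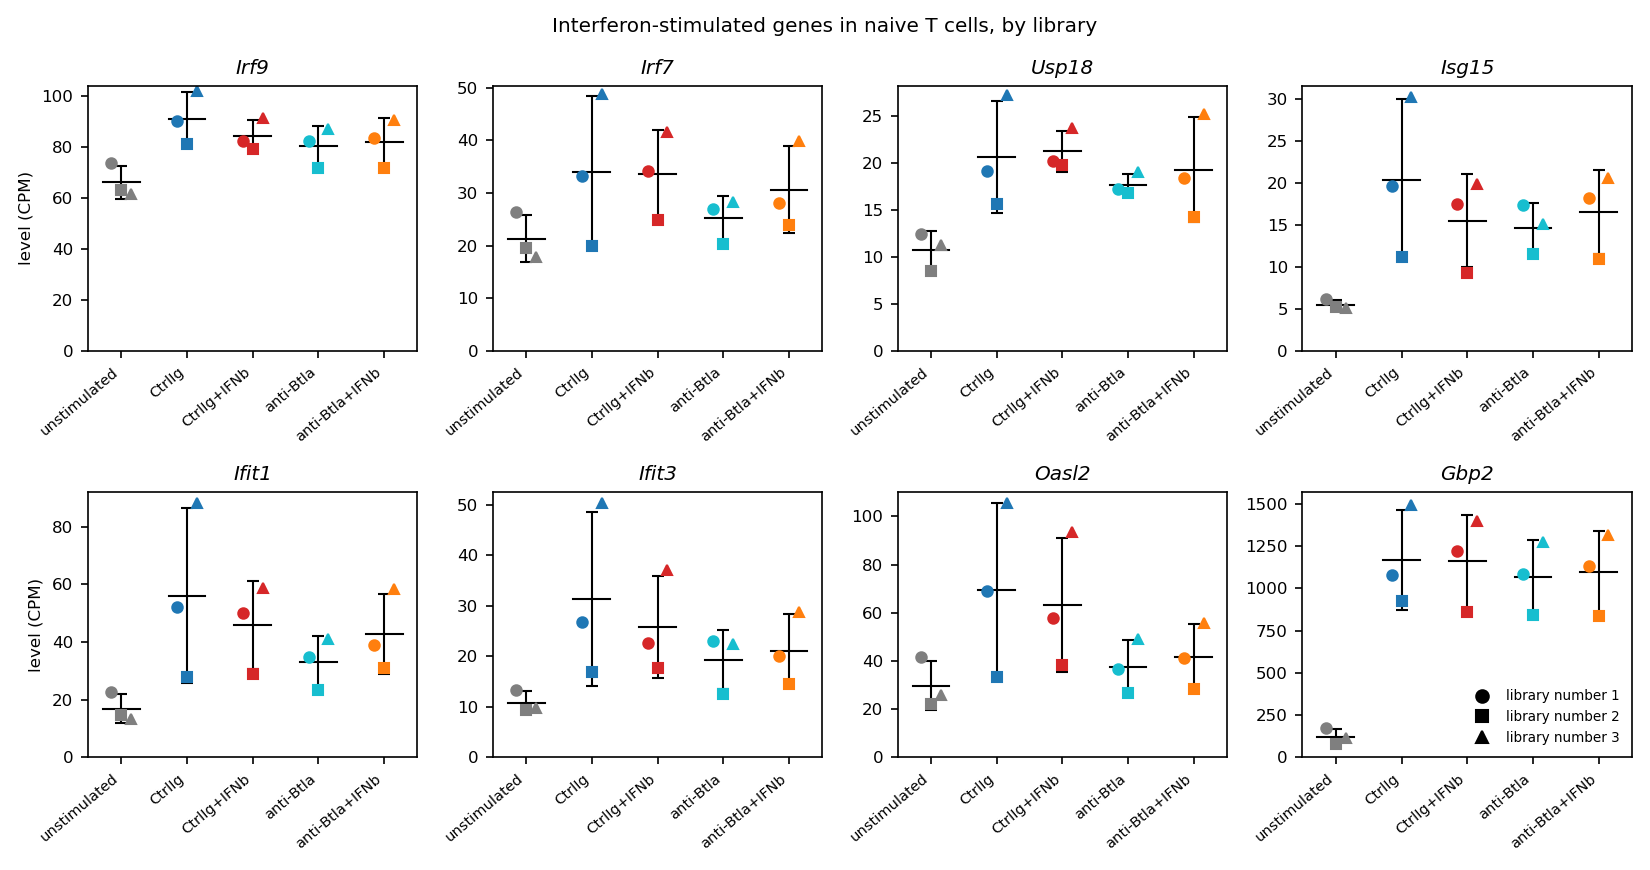
Levels in CPM of interferon-stimulated genes in the 15 naive T cell libraries by group, with 1 point for each library, its number shown by the symbol, and lines for the mean and SD of each group of 3. Isg15, for example, spans 11.1 to 30.3 CPM in the 6 stimulated libraries without IFNb and 9.23 to 20.6 CPM in the 6 with it, and the libraries numbered 3 tend to lie above those numbered 2 in every stimulated group.

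No gene of the receptor and its signaling chain was called. The lowest, median and highest levels of Ifnar1 were 171, 175 and 185 CPM without and 171, 178 and 188 CPM with IFNb, and those of Ifnar2 were 61.1, 63.8 and 69.1 CPM against 59.2, 65.2 and 67.6 CPM. Both chains of the receptor were therefore transcribed in every library, with log2 changes of 0.02 and 0.01. Stat2 and Irf9, parts of ISGF3, each had a log2 change of −0.05, with intervals from −0.20 to 0.10 and from −0.15 to 0.06. All 15 genes of receptor and Jak-Stat signaling were tested, and their log2 changes ran from −0.06 to 0.06 with 7 above and 8 below 0.

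Feedback inhibitors are among the earliest targets of interferon. Usp18, which removes Isg15 from proteins and blocks Ifnar2, stood at 15.7, 18.1 and 27.3 CPM (lowest, median and highest) without and at 14.2, 20 and 25.3 CPM with IFNb, and Socs1 at 15.3, 18.5 and 22.7 CPM against 15.9, 17 and 22.6 CPM. The log2 changes were 0.08 for Usp18 and −0.07 for Socs1, with groups that overlapped for both. Socs3, another inhibitor of cytokine receptors, ran from 30.7 to 53.7 CPM without and from 24.4 to 45.9 CPM with IFNb, with a log2 change of −0.20 (interval −0.39 to −0.01, adjusted p = 1 in edgeR) and a higher level with IFNb in 1 of 6 pairs. Of 12 feedback inhibitors, 4 were above and 8 below 0.

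The transcription factors that amplify the response were likewise near 0. Irf7, the master regulator of later interferon production, had a lowest, median and highest level of 19.9, 27.7 and 48.8 CPM without and of 23.9, 31.2 and 41.7 CPM with IFNb. It was higher in 5 of 6 pairs, and its log2 change of 0.14 had an interval from −0.11 to 0.39. Irf1 ranged from 168 to 237 CPM without and from 168 to 229 CPM with IFNb (log2 change 0.00, interval −0.10 to 0.10). The 11 tested interferon regulatory factors and their binding proteins ran from −0.37, for Irf5, to 0.14. Among 19 nucleic acid sensors and adaptors, which start the response to viral RNA or DNA, 6 were above and 13 below 0. Ifih1, the RNA sensor MDA5, had a log2 change of 0.10 with an interval from −0.03 to 0.24.

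Antiviral effectors, the products that act on viruses directly, made up the longest list. Of 36 tested, 18 lay above and 18 below 0, with a median of 0.00. Ifit3 stood at 12.5, 22.7 and 50.3 CPM (lowest, median and highest) without and at 14.6, 21.3 and 37.0 CPM with IFNb, and Rsad2, the enzyme viperin, at 2.00, 4.41 and 8.15 CPM against 2.47, 4.53 and 6.24 CPM. Mx1, a dynamin-like GTPase, was at 2.79 to 4.57 CPM without and at 2.97 to 5.27 CPM with IFNb. None of these 3 differed between the groups, at log2 changes of −0.07, 0.03 and −0.01. The highest values of the list were those of Ifit3b, at 0.33 (interval −0.07 to 0.74, higher in 6 of 6 pairs), and of Bst2, at 0.23 (interval −0.01 to 0.46, higher in 5 of 6 pairs). Bst2, the membrane protein tetherin that holds budding virus, ran from 9.13 to 18.5 CPM without and from 11 to 16 CPM with IFNb, and neither gene passed the test at unadjusted p values of 0.057 for Bst2 and 0.102 for Ifit3b in edgeR.

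The families of interferon-inducible enzymes had no called member. The 8 tested genes of the oligoadenylate synthetase pathway, which degrades viral RNA, ran from −0.15 to 0.11. Oasl2 was at 26.6, 42.8 and 106 CPM (lowest, median and highest) without and at 28.5, 48.3 and 93.5 CPM with IFNb, for a log2 change of 0.03. The 19 interferon-inducible GTPases, which attack the vacuoles of intracellular microbes, ran from −0.06 to 0.14 with 15 above 0 and a median of 0.01. The highest of them was Tgtp2 at 0.14. The 14 ADP-ribosyltransferases ran from −0.06 to 0.12. Parp6 was the highest at 0.12 (adjusted p = 1 in edgeR), with 43.4 to 52.8 CPM without and 50.3 to 56.4 CPM with IFNb.

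The remaining families ran close to 0 as well. The PYHIN family of DNA sensors (11 tested) had a median of −0.02 and a lowest value of −0.65 for Ifi207. The Schlafen family (8 tested), regulators of T cell quiescence, ran from −0.06 to 0.07. The TRIM family of ubiquitin ligases (15 tested) ran from −0.27 to 0.18, the latter for Trim30b. Genes of Isg15 conjugation (7 tested) ran from −0.12 to 0.26. Ly6 surface proteins (7 tested) ran from −0.82 to 0.06, and the lowest was Ly6k, a gene at 0.557 to 1.92 CPM without and 0.463 to 1.01 CPM with IFNb. Its interval ran from −1.42 to −0.22 (adjusted p = 1 in edgeR). Ly6a, the T cell activation antigen Sca-1, was at 0.05. A further 12 genes of the 14 interferon lists that were in the tables did not pass the filter on low counts, among them Batf2, Tlr3 and Ch25h. In the 18 other lists, described below, 13 genes did not pass it.

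Class I presentation, which interferon raises in most cells, was also near no change. B2m, the light chain of every class I molecule, had a lowest, median and highest level of 3688, 3902 and 4753 CPM without and of 3598, 4008 and 4835 CPM with IFNb. Its log2 change was 0.02 with an interval from −0.06 to 0.10. H2-K1, a classical heavy chain, ranged from 1685 to 1915 CPM without and from 1670 to 1820 CPM with IFNb, at 0.00 with an interval from −0.06 to 0.06. Tap1, a chain of the peptide transporter, was at −0.03 with an interval from −0.10 to 0.05. The 28 tested genes of the list split into 14 above and 14 below 0, and all of them lay between −0.11 and 0.19.

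The intervals show how large a change, averaged over the bead arms, these libraries leave room for. For all 207 interferon genes the upper bound of the 95% interval was under 2-fold, and for 188 the whole interval lay within 1.5-fold. The highest bound, 1.91-fold, was that of Gbp2b, which was at 0.279 to 1.51 CPM in the 12 libraries. Among the 170 with a mean level of 10 CPM or more, the whole interval lay within 1.5-fold for all 170 and the highest bound was 1.38-fold. For comparison, 8592 of all 8622 genes at that level had intervals within 1.5-fold. A rise of 2-fold or more in any of the 207, as a mean over the bead arms, would thus lie outside its own interval. The bound does not hold for a single arm, where estimates were less precise. The median standard error of the log2 change over all genes tested was 0.122 with CtrlIg and 0.115 with anti-Btla beads, against 0.0840 for the average. The intervals are each for a single gene and are not adjusted for their number.

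**Figure D2:**
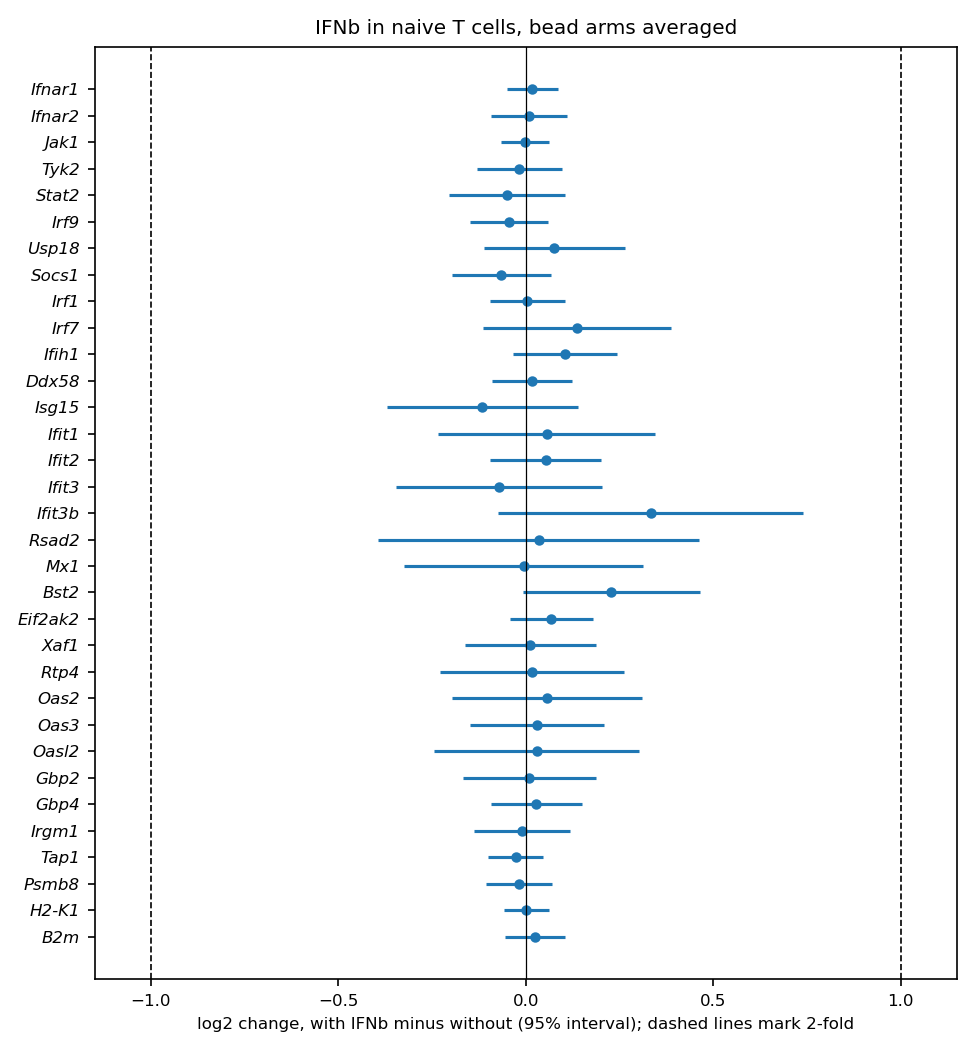
Log2 change with IFNb in naive T cells, averaged over the bead arms, for genes chosen from the interferon lists after their values were seen, with the 95% interval of each as a bar and dashed lines at 2-fold. Every interval shown includes 0 and none reaches 2-fold, as for Isg15 (−0.37 to 0.14) and B2m (−0.06 to 0.10). That all include 0 follows from the choice of genes. The 4 interferon genes with an unadjusted edgeR p below 0.05 (Socs3, Ly6k, Parp6 and Trim30b) are not shown.

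The comparison was repeated within each bead arm. With CtrlIg beads 0 of 15150 genes were called (0%), 926 had an unadjusted p below 0.05 and DESeq2 called 2. With anti-Btla beads 0 were called (0%), 609 had an unadjusted p below 0.05 and DESeq2 called 7. The median log2 change of the 207 interferon genes was −0.04 in the CtrlIg arm and 0.04 in the anti-Btla arm. For Isg15 the difference between the arms had an unadjusted edgeR p of 0.0283, and for Ifit1 one of 0.0285. The test of the difference between the arms called 0 genes (0%), with 960 at an unadjusted p below 0.05, a smallest adjusted p of 0.154 and 9 calls by DESeq2. Ly6k was lower with IFNb in all 3 CtrlIg pairs, with 1.5, 1.92 and 1.92 CPM without and 0.749, 0.494 and 0.463 CPM with IFNb, and at 0.557 to 1.01 CPM in the anti-Btla arm (the difference was not called). By smallest p among genes of at least 10 CPM, the difference was led upward by Zc3h11a, Spry1, Maea, Gm8797 and Ubn1 and downward by Fam196b, Gm43498, Gm17132, Olfr46 and Arhgap15. None was called by edgeR with the filter on low counts, DESeq2 called Fam196b, Gm17132 and Arhgap15, and without the filter edgeR called all but Spry1, Maea and Ubn1.

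The same libraries gave clear differences in other directions, which set a scale. Activation by anti-CD3 with CtrlIg beads, compared with unstimulated cells, called 50.1% of the 15150 genes, and 27.1% were called higher. Among the 207 interferon genes 155 were called, of which 118 were higher. All 19 GTPases were higher with activation, and Gbp2 rose by a log2 change of 3.34, Isg15 by 1.93 and Irf1 by 1.39 (all at an adjusted p below 0.05 in edgeR). These rises were present in cells that had received no IFNb.

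Splitting the same 12 libraries by bead in place of IFNb, 6 against 6, called 0.0198% of genes higher and 0.139% lower with anti-Btla, 3 and 21 genes. The study named Cd40lg, Il2, Ifng, Cd274, Tnfsf8, Il7r and Cish, among others, as lower with anti-Btla in activated T cells of this series. Its text describes no IFNb in that comparison, while the bead comparison here averages over libraries with and without IFNb. The samples overlap, so the direction of these genes here is not independent evidence. For these genes the IFNb comparison can be set beside the bead comparison of equal precision. Cd40lg, the CD40 ligand that T cells show to B cells, stood at 31.8, 32.3 and 26.2 CPM in CtrlIg and at 31.2, 34.9 and 30.4 CPM in CtrlIg+IFNb libraries. It stood at 22.1, 25.3 and 18.1 CPM in anti-Btla and at 23.8, 23.5 and 18.3 CPM in anti-Btla+IFNb libraries. The levels of the bead arms did not overlap, while those with and without IFNb did, and the log2 change was −0.52 with the bead (adjusted p = 0.0028 in edgeR) and 0.06 with IFNb. Il2, the T cell growth factor, had a log2 change of −0.65 with the bead and of −0.07 with IFNb, and Ifng, the type II interferon, of −0.63 and 0.05. The same 12 libraries enter both comparisons, so the values are given side by side only. The bead count fell to between 5 and 20 genes when a library was left out, and 0 were called without the replicate number in the fit.

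Of the interferon lists the bead comparison called 3 genes, all lower with anti-Btla. They were Oasl2 (log2 change −0.71), Gbp11 (−0.52) and Cish (−0.34), a feedback inhibitor of cytokine receptors that the study had named. The median over the 207 genes was −0.08 with the bead and 0.00 with IFNb.

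**Figure D3:**
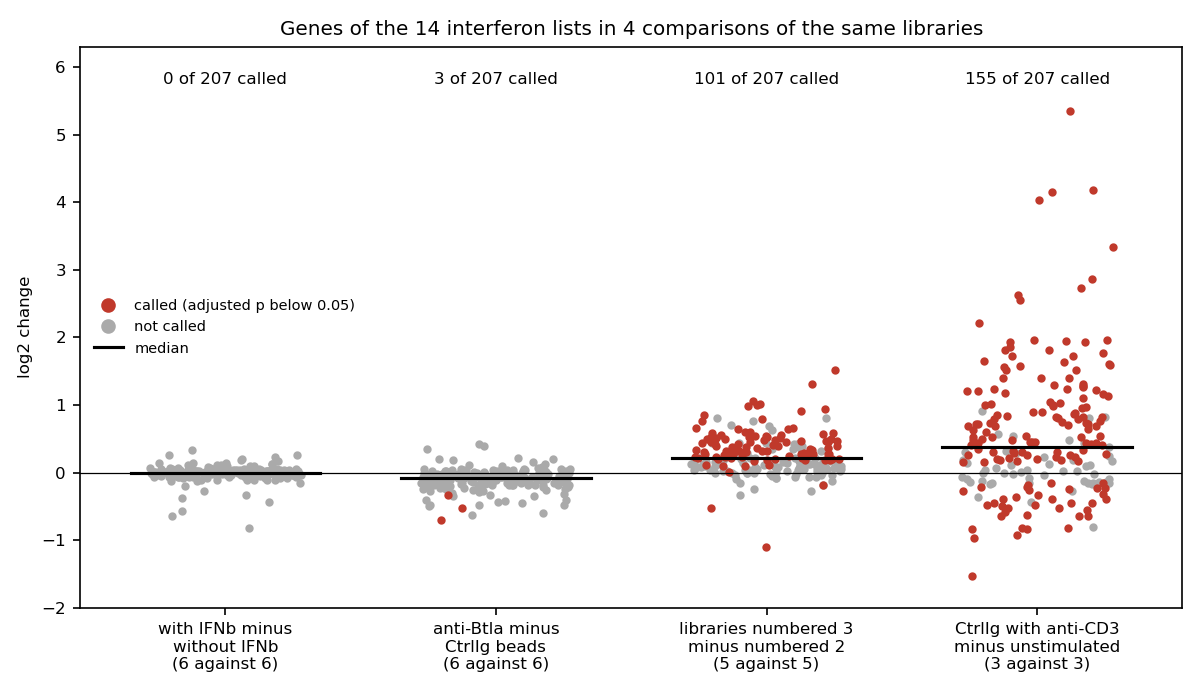
Log2 changes of the 207 tested interferon genes, 1 point for each gene, in the IFNb comparison, the comparison of anti-Btla with CtrlIg beads, the comparison of libraries numbered 3 with those numbered 2 and that of activated with unstimulated cells, with called genes marked. The IFNb column has no called gene and a median of 0.00, while 101 genes were called by number and 155 by activation.

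Interferon genes also differed between libraries by replicate number. An F-test of the numbers 1, 2 and 3 over the 15 libraries of the same fit called 1018 genes, 6.72% of those tested. Of the 207 interferon genes it called 101, and in 98 of these the libraries numbered 3 lay above those numbered 2. The 3 exceptions were Irf4, Irf5 and Tlr9. The labels do not say what the numbers mark. Every naive T cell library numbered 3 was sequenced in 2 runs, and of the rest only anti-Btla+IFNb library 2 was. The libraries numbered 3 held 17.7 to 32.3 M counts, and the libraries with 1 run held 7.30 to 15.3 M. Number 3 therefore largely coincides with a second run and greater depth, and the part of these in the differences by number was not tested. Gbp2 averaged 1129, 867 and 1373 CPM in the 4 stimulated libraries numbered 1, 2 and 3. Oasl2 averaged 51.1, 31.7 and 75.9 CPM. The order was therefore 2, 1, 3 from low to high for both genes, with a log2 difference between numbers 3 and 2 of 0.64 for Gbp2 and 1.05 for Oasl2. Of the 63 interferon genes with an ISRE 38 were called by number, all 38 higher in number 3, and of the 102 without one 42 were called. For IFNb the genes with an ISRE had a median log2 change of 0.01 and 0 called.

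**Figure D4:**
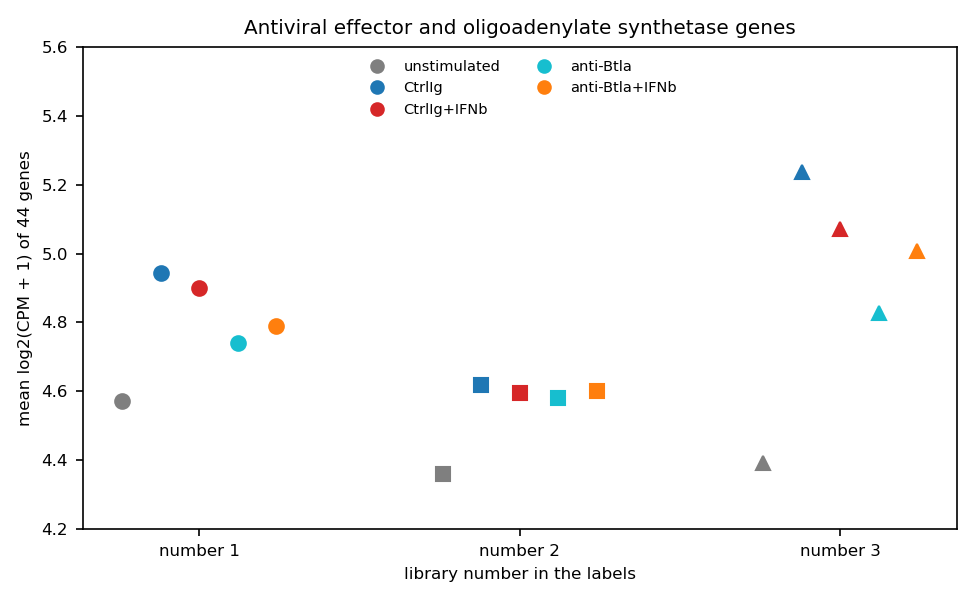
Mean log2(CPM + 1) of the 44 tested antiviral effectors and oligoadenylate synthetase pathway genes in each naive T cell library, by library number on the horizontal axis and by group in color. Stimulated libraries numbered 2 lie lowest (4.58 to 4.62) and those numbered 3 reach 5.24, and within each number the libraries with IFNb lie between the anti-Btla and the CtrlIg library.

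The average of the 44 tested antiviral effectors and oligoadenylate synthetase pathway genes, as a mean of log2(CPM + 1), gives the same picture by library. It ranged from 4.74 to 4.95 in the stimulated libraries numbered 1, from 4.58 to 4.62 in those numbered 2 and from 4.83 to 5.24 in those numbered 3. Within the bead arms the value with IFNb minus that without was −0.05, −0.02 and −0.16 for CtrlIg pairs 1, 2 and 3, and 0.05, 0.02 and 0.18 for anti-Btla pairs. The 2 arms moved in opposite directions by similar amounts, and within each number the mean difference was 0.00186, −0.0015 and 0.00825. Unstimulated libraries had values of 4.57, 4.36 and 4.39 for the numbers 1, 2 and 3, below all stimulated libraries.

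The other programs of an activated T cell were also tested against IFNb. The 18 lists for coinhibition and costimulation, cytokines and their receptors, chemokines, survival, antigen receptor response, differentiation, cell cycle and metabolism held 464 tested genes. None was called, 11 had an unadjusted p below 0.05, and the median log2 change was 0.00 with 238 above and 226 below 0. Btla itself was at 112, 121 and 133 CPM (lowest, median and highest) without and at 116, 130 and 135 CPM with IFNb, for a log2 change of 0.08 (interval −0.01 to 0.16). Its ligand Tnfrsf14, also named Hvem, was at −0.01. Cd274, the PD-1 ligand that interferons raise in many cells, ranged from 286 to 451 CPM without and from 320 to 443 CPM with IFNb, at 0.06 with an interval from −0.01 to 0.13. The activation marker Cd69, an antagonist of lymphocyte egress, ranged from 658 to 769 CPM without and from 699 to 854 CPM with IFNb, at 0.06.

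Further genes the study had drawn attention to were as near 0. The log2 change with IFNb was −0.05 for the coinhibitory receptor Lag3 and for Il7r, the receptor of the survival cytokine interleukin 7. It was 0.00 for Tnfsf8, the ligand of CD30. The transcription factors Myb and Hif1a were at 0.03 and −0.03, and Cish was at −0.01.

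The 11 genes of these lists with an unadjusted p below 0.05, out of 464 tested, were scattered over their programs. Their share was smaller than that over all genes tested, 632 of 15150 (4.17%), so they are listed for description only. Junb (−0.14) and Jund (−0.15), subunits of AP-1, and Klf2 (−0.12) and Tob1 (−0.12), which keep T cells quiescent, were lower. Gins1, a subunit of the replicative helicase complex, was at −0.59 and lower in all 6 pairs, at 2.41 to 2.95 CPM without and 1.17 to 2.49 CPM with IFNb. Gnl3, a nucleolar GTPase, and Xbp1, a transcription factor of the unfolded protein response, were both at 0.11 and higher in 6 of 6 pairs. The other 4 were Ndufv1 (−0.17) and Atp5d (−0.10) of oxidative phosphorylation, the glycolytic enzyme Gpi1 (−0.06) and Insig1 (−0.11), a brake on sterol synthesis. Each had an adjusted p of 1.

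Over all genes with at least 10 CPM, the smallest p belonged to Ak6 and Taf9, neighbours that share exon sequence on chromosome 13. Ak6 (chr13:100650979-100666359), a nuclear adenylate kinase, was at 33.9 to 43.6 CPM without and 40.2 to 55.6 CPM with IFNb, a log2 change of 0.27 (adjusted p = 0.377 in edgeR) and higher in 6 of 6 pairs. Taf9 (chr13:100651579-100656060), a subunit of the general transcription factor TFIID, was at 12.1 to 18.8 CPM without and 9.82 to 14.1 CPM with IFNb, a log2 change of −0.40 (adjusted p = 0.758 in edgeR) and lower in all 6 pairs. Since their exons overlap, estimated counts could be split between the 2 genes in either way and their opposite directions are uncertain. The next by p upward were Acvr2a (0.22), Gm38394 (0.30), Fundc1 (0.19) and Paip2b (0.16), and downward Tpt1-ps3 (−0.22), Lars2 (−0.40), Gm45234 (−0.32) and Gm20594 (−0.33). None passed the adjusted threshold in edgeR with the filter on low counts, Ak6 and Tpt1-ps3 were among the 11 calls of DESeq2, and without the filter edgeR called all of them but Fundc1 and Paip2b.

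Single transcripts were tested because some targets respond from a second promoter. None of 46309 transcripts was called (0%), and 1558 had an unadjusted p below 0.05. Adar, an RNA-editing enzyme, has a constitutive and an interferon-inducible start. The whole gene ranged from 101 to 125 CPM without and from 105 to 119 CPM with IFNb, with a log2 change of −0.01. Of its 9 transcripts 6 were tested. Adar-203 (chr3:89730748-89753446), the most abundant, was at 69.0 ± 22 CPM without and 77.9 ± 11.3 CPM with IFNb (SD, n = 6 libraries each), a log2 change of 0.19 with an interval from −0.50 to 0.87. Adar-201, at 24.2 ± 6.35 CPM against 22.3 ± 3.90 CPM, was at −0.12. Adar-208 (chr3:89737586-89739289), a transcript with a retained intron, was at 2.98 ± 0.436 CPM without and 3.8 ± 0.440 CPM with IFNb (adjusted p = 1 in edgeR). Adar-202, which begins furthest upstream among the coding transcripts, varied too much to be read, at 13.4 ± 13.8 CPM without and 5.32 ± 11.6 CPM with IFNb, and its assignment is an estimate from shared exons. Adar-209 and Adar-206 had log2 changes of −0.11 and −0.07.

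The series ran the same 4 arms on T cells from mice given MOG peptide, a model of autoimmune brain inflammation named EAE, and on naive B cells activated through their antigen receptor. In a fit of the 30 T cell libraries, the IFNb effect in naive T cells minus that in EAE T cells was called higher for 0.701% of 15982 genes and lower for 0.551%, 112 and 88 genes. Leaving out a library gave between 119 and 275 genes, with the lowest count without CtrlIg library 1 of the naive T cells, and 56 were called without the replicate number in the fit. For EAE T cells alone 2.52% were called higher and 2.76% lower. The protein-coding genes of the mitochondrial genome, 13 in all, were among the genes that differed. In naive T cells their log2 changes lay between −0.01 and 0.06 with 0 called, while in EAE T cells all 13 were higher with a median of 1.42, so that all 13 differences were called lower. The cytosolic ribosomal protein genes (77 tested) had 0 called in naive T cells and 59 lower in EAE T cells, and 32 of the differences were called. The share of all counts from the mitochondrial genome, which moved with IFNb in the EAE libraries, was 3.70 to 4.22% in naive T cells without and 3.85 to 4.29% with IFNb. In EAE T cells it was 1.27 to 3.89% without and 5.71 to 10.2% with IFNb. The part of this share in the other called differences was not tested.

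**Figure D5:**
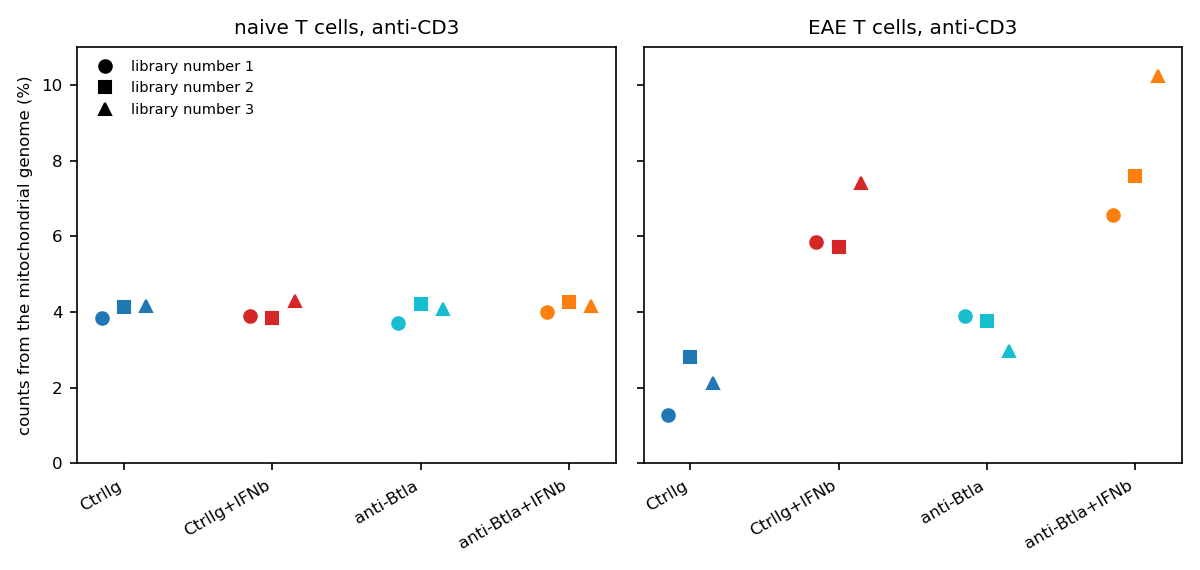
Share of each library's counts from the mitochondrial genome, in percent, for the 4 stimulated groups of naive T and EAE T cells, with 1 point for each library. Naive T cells stay between 3.70 and 4.29% in all 12 libraries, while EAE T cells reach 10.2% with IFNb and do not exceed 3.89% without it.

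Of the 207 interferon genes 23 were called in EAE T cells, 21 higher and 2 lower, against 0 in naive T cells. The difference itself was called for 3 of them, of which 2 are described. The DNA-binding PYHIN protein Mndal was at 0.56 in EAE and 0.00 in naive T cells (adjusted p = 0.0293 in edgeR). Canx, a chaperone of class I heavy chains, was at −0.25 in EAE and 0.04 in naive T cells (adjusted p = 0.0486 in edgeR). For the other 20, such as Oas2 (0.63 in EAE, 0.06 in naive T cells) and Xaf1 (0.54 and 0.01), a difference between the T cell sets was not called. Isg15, Ifit1 and Gbp2 were not called in either set.

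In naive B cells IFNb likewise called 0 of 17962 genes (468 at an unadjusted p below 0.05, and 10 by DESeq2). The difference between naive T and naive B cells was called for 0 genes (0%), with 765 at an unadjusted p below 0.05 and 5 calls by DESeq2. The smallest p among genes of at least 10 CPM went upward to Ak6, Gm6377, Mmadhc, Jagn1 and Tdrp and downward to Abcb1a, Taf6, Tpt1-ps3, Taf9 and Sap130. The median log2 change of the interferon genes was 0.04 in naive B cells and 0.00 in naive T cells.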

How the data were processed

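Total RNA was sequenced on an Illumina HiSeq. The authors deposited Salmon output per transcript, with estimated counts, which were used here, and TPM values, which entered no test. The submitters' processing notes name GRCm38, Salmon and DESeq2. No source used here gives the library kit or strand setting. Expected counts were summed to genes with GENCODE M21 and rounded. Runs of 6 naive T cell libraries sequenced again were summed, since a chi-square test gave 1.53 to 1.65 per degree of freedom between runs and 4.39 to 10.3 between replicates of a group. Group and number came from the titles.

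The 15 naive T cell libraries shared a fit in edgeR 4.0.16 (R 4.3.3) with TMM, filterByExpr (minimum count 10), the quasi-likelihood F-test and the replicate number as a block, as an intercept for each number. Calls are at a Benjamini-Hochberg adjusted p below 0.05, and intervals are at 95%. Differences to EAE T or naive B cells used fits of 30 libraries. DESeq2 1.42.0, no filter, no block, 12 libraries only and leaving out each library were the alternatives. The scripts were tested on simulated data. Nothing says that libraries are separate mice, so p-values reflect only how these samples vary, and counting error alone understates that.

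The members and lists were chosen with earlier results of these data known. By rule, the named genes were 24 fixed genes and up to 4 of each list by smallest p. The rule also took in the 12 largest calls in each direction over 10 CPM (there were none). For differences, the 5 smallest p in each direction were named. Other list members, such as Irf1, Gbp2, Ifit1, Mx1 and H2-K1, met none of these rules and were picked by hand as examples. The ranking by p over all genes and the bead, activation and number comparisons were added after the data were seen. Of the 694 list genes, 42 overlap exons of a neighbour on their own strand and 105 on the opposite strand, so their estimated counts are less certain. Some named genes are not reported here.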

Additional observations from a re-analysis of the deposited data

Results flagged for a closer look

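The effect of IFNb differed between naive T and EAE T cells by a test of the difference itself, an interaction in the fit of 30 libraries, for 200 genes. The log2 difference, naive T minus EAE T, was highest by p for the ribosomal protein genes Rps14 (0.67), Rps21 (0.65), Rpl41 (0.54), Rplp1 (0.61) and Rps7 (0.41), each lower with IFNb in EAE T cells and not called in naive T cells. In the other direction it was led by Gm20594 (−1.84) and by the mitochondrial genes mt-Nd6 (−1.19), mt-Nd4l (−1.52), mt-Nd5 (−1.38) and mt-Nd4 (−1.57). As an example, mt-Nd4 was at 3357 ± 254 CPM without and 3392 ± 231 CPM with IFNb in naive T cells (SD, n = 6 each) and at 2063 ± 771 and 6009 ± 1505 CPM in EAE T cells.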

How the results depend on the processing

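None of the 207 interferon genes was called under any alternative of the averaged comparison, and the number with an upper bound under 2-fold was 204 to 207 when a library was left out and 206 without the replicate block. Without a filter on low counts the averaged comparison gave 96 calls, 0 in any list, with a median level of 2.25 CPM and a highest of 3170 CPM, and 89 of them had also been tested with the filter. The other counts without that filter were 100 (CtrlIg), 81 (anti-Btla), 117 (difference between arms), 463 (naive T against EAE T), 30 (naive T against naive B), 319 (bead), 1746 (number) and 15 (naive B). With DESeq2 they were 11 averaged, 2, 7, 9, 439, 5, 92 for the bead and 10 for naive B, in the same order. With the 12 stimulated libraries only, they were 1, 1 and 3 for the arms and their difference and 87 for the bead. Without the replicate block 0 genes were called for IFNb, 56 for naive T against EAE T, 0 for the bead and 396 for EAE T cells. A block of the 6 pairs also called 0 for IFNb. The cause was not tested. Leaving out each library gave 0 to 2 calls averaged, 0 to 2 in either arm, 0 to 3 for their difference, 0 to 1 for transcripts, for naive B cells and for naive T against naive B, and 119 to 275 for naive T against EAE T. The 2 averaged calls came without CtrlIg+IFNb or anti-Btla+IFNb library 2. It gave 5 to 20 for the bead (5 to 15 without CtrlIg library 3 and without anti-Btla or IFNb-treated libraries other than anti-Btla library 2 and CtrlIg+IFNb library 1), 690 to 932 for the number, 6631 to 7641 for activation and 540 to 892 for EAE T cells. The counts of 119 to 132 came without CtrlIg, anti-Btla, CtrlIg+IFNb or anti-Btla+IFNb library 1, anti-Btla+IFNb library 2 or CtrlIg+IFNb library 3 of the naive T cells, and the 540 without EAE T CtrlIg+IFNb library 3. Of the 576 list medians under alternatives, 575 moved by less than the spread between pairs, within −0.11 to 0.09. That spread is the SD of a list's median change with IFNb over the 6 same-numbered pairs of both bead arms.

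All 15 libraries correlated best with their own number, but only 20 of 30 same-numbered pairs had r above 0.1 (median 0.12 against −0.05 for other pairs), so the numbers were used as a block and to match libraries but were not shown to mark shared mice. The bead calls depend on the block. Depth limits genes under about 1 CPM, such as Gbp2b and Ly6k, whose intervals are wide.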
